A study of Mus musculus with 4 samples.

Results

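The 7 genes Gad1, Gad2, Slc6a11, Slc6a13, Abat, Aldh5a1 and Maob, which serve the synthesis, uptake and breakdown of the inhibitory transmitter GABA, were followed in cultured mouse astrocytes with and without knockdown of Phf8. They were taken by symbol from the 55421 genes listed in the count files, and each symbol belonged to 1 gene identifier. The 2 Phf8 shRNA libraries came from C57BL/6J neural stem cells that were differentiated into astrocytes in medium with serum and infected with a lentivirus carrying a short hairpin RNA (shRNA) against PHF8. The 2 control shRNA libraries came from the same kind of astrocytes infected with a lentivirus carrying a control shRNA. A short hairpin RNA is cut in the cell to a small RNA that silences its target, and Phf8 encodes a demethylase that removes methyl groups from histones. The labels name neither the hairpin sequences nor the time of harvest, and they do not say whether both biological replicates of a group were separate cultures or infections. The p-values therefore measure only the spread between these libraries, which may be technical.

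GABA is made from glutamate by the glutamate decarboxylases, is taken up from the extracellular space by sodium-coupled transporters of the SLC6 family, and is broken down in mitochondria by a transaminase and a dehydrogenase that pass its carbon to the Krebs cycle. Astrocytes in the brain are known mainly for uptake and breakdown, through the transporter encoded by Slc6a11 (known as GAT-3) and the transaminase encoded by Abat. Astrocytes in some brain regions are also known to make GABA, partly from putrescine through a route that uses monoamine oxidase B.

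Reads assigned to genes numbered 36839530 to 44724759 per library, and 27.8% and 28.2% of them in the Phf8 shRNA libraries, against 21.2% and 22.5% in the control shRNA libraries, came from the mitochondrial ribosomal RNAs. Levels are given as CPM, a gene's share of the reads of its library on a fixed scale, after TMM scaling (trimmed mean of M-values). The labelled cell type was checked on 12 astrocyte markers, and all 12 passed the low-count filter. Their summed level was 7394 and 6648 CPM in the Phf8 shRNA libraries and 10028 and 9763 CPM in the control shRNA libraries. Of the 12, 4 rose (Slc1a2, Glul, Gja1 and Gjb6), 7 fell (among them Gfap and Aqp4) and 1 did not pass the test. The targeted gene Phf8 had 1915 and 1551 reads in the Phf8 shRNA libraries and 2304 and 2170 reads in the control shRNA libraries. Its log2 fold change was -0.30 ± 0.06 (SE), and it passed the test (edgeR quasi-likelihood F test, Benjamini-Hochberg adjusted p = 1.72e-06), but not (likelihood ratio test of edgeR, adjusted p = 0.639) when the biological coefficient of variation was set to 0.2 in place of the estimated 3.64%.

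Of the 7 genes, 5 passed the low-count filter, and Gad2 and Slc6a13 did not. Of these 5, Gad1, Slc6a11 and Abat rose with Phf8 shRNA, Maob fell and Aldh5a1 did not pass the test. Across all 21042 genes tested, 52.1% were called at an adjusted p under 0.05, 24.8% of the genes tested being higher (5225 genes) and 27.3% lower (5740 genes) with Phf8 shRNA, so that a call by itself did not set a gene apart. With upper-quartile scaling in place of TMM, 54.4% were called, split into 6640 higher and 4811 lower. The median log2 fold change was 0.73 over the 5 genes and 0.014 over all genes tested.

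**Figure D1:**
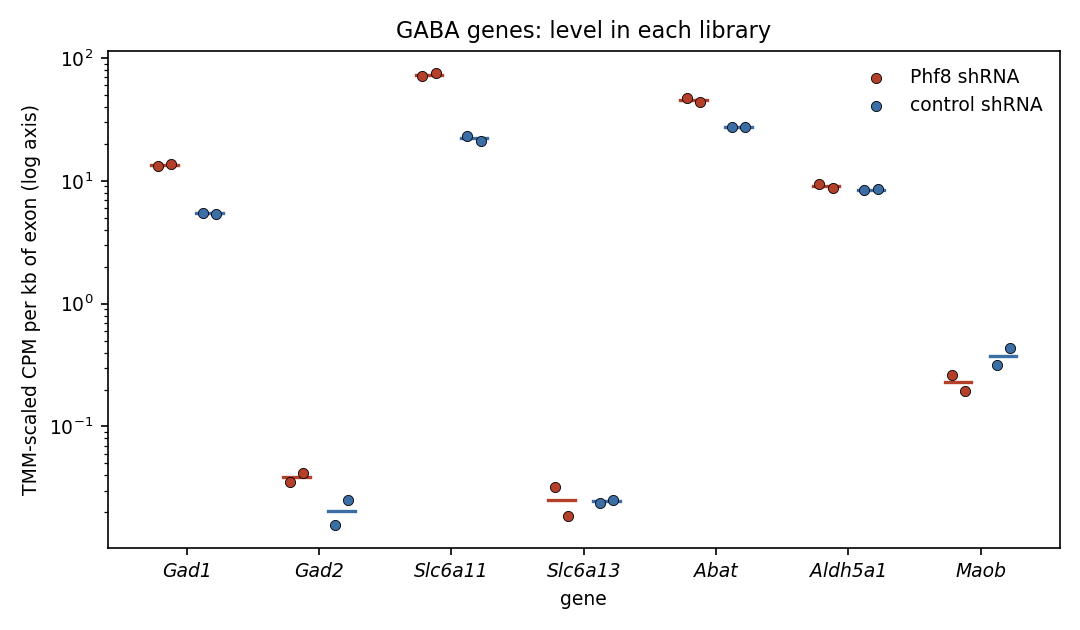
Level of each of the 7 genes in each library, in TMM-scaled CPM per kilobase of exon on a log axis. Points are libraries (Phf8 shRNA left, control shRNA right, 2 each) and lines are group means. Gad1, Slc6a11 and Abat lie higher in both Phf8 shRNA libraries than in both control shRNA libraries, and Gad2 and Slc6a13 lie below 0.05 in all 4.

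The glutamate decarboxylase gene Gad1 rose 2.47-fold, whereas its relative Gad2 was barely detected. Both encode enzymes that remove the carboxyl group of glutamate to give GABA. In neurons the product of Gad1 is known to make GABA throughout the cell, and that of Gad2 is known to be concentrated at nerve terminals. Gad1 (ENSMUSG00000070880, plus strand of chromosome 2, 70553072 to 70602014 in mm10) stood at 101 and 105 CPM in the Phf8 shRNA libraries, against 42.0 and 41.2 CPM in the control shRNA libraries. Both Phf8 shRNA libraries lay above both control libraries, and the groups did not overlap. The log2 fold change was 1.31 ± 0.06 (SE, n = 2 libraries per group) (edgeR quasi-likelihood F test, Benjamini-Hochberg adjusted p = 5.19e-111). Of all genes tested, 3.06% had a larger log2 fold change than Gad1, and 9.32% had a larger one in absolute size. These shares only describe its place among them.

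Gad2 (ENSMUSG00000026787, plus strand of chromosome 2, 22622205 to 22693874) had 9 and 9 reads in the Phf8 shRNA libraries, against 4 and 6 reads in the control shRNA libraries. Counts of this size leave the difference undecided, since the depth-adjusted ratio of reads of 1.89 had a 95% exact binomial counting interval of 0.829 to 4.59, which covers counting error only. Without the low-count filter, Gad2 did not pass (log2 fold change 0.89, edgeR quasi-likelihood F test, Benjamini-Hochberg adjusted p = 0.324). The reads of Gad1 exceeded those of Gad2 485-fold and 428-fold in the Phf8 shRNA libraries and 455-fold and 281-fold in the control shRNA libraries. The groups overlapped in this ratio. The mean log2 ratio differed by 0.35 between Phf8 shRNA and control shRNA (two-sided exact permutation test over 4 libraries, p = 0.667; the smallest p this design allows is 0.33), and 4 to 9 reads of Gad2 stand behind each ratio. Without control shRNA replicate 2, the library with the lowest ratio, the difference was 0.00.

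The 300 bases around the RefSeq start of each decarboxylase gene, 250 before it and 50 after, are shown because the genes are relatives that differed this widely in level. The sequences are from RefSeq in build GRCm38.p6, the same assembly as mm10, run 5′ to 3′ on the plus strand, and have each CG dinucleotide in capitals. The Gad1 window is chr2:70561879-70562178, whose start site lies 9057 bases inside the gene as listed in the count files, and the Gad2 window is chr2:22622077-22622376.
Gad1: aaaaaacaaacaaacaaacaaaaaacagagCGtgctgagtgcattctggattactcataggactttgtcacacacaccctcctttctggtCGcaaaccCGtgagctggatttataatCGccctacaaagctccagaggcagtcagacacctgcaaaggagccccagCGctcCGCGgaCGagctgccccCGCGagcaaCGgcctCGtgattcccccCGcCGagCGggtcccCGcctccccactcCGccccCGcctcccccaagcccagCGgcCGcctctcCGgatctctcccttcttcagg
Gad2: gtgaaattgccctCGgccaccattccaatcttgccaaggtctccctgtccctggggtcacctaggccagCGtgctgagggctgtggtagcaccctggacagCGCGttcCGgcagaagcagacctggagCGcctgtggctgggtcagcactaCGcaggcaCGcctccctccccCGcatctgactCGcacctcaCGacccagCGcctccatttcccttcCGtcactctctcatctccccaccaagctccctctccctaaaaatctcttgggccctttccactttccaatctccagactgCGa
The Gad1 window held 21 CG dinucleotides, and 24.8% of all 32851 RefSeq windows of this length held as many or more. The Gad2 window held 14, reached by 36.3% of windows, against a median of 7 over all windows. Methylation and histone marks were not measured here, and the letters carry no information on them.

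The GABA transporter gene Slc6a11 rose 3.28-fold, the largest change among the 5 tested genes. Its product is the transporter that in brain is found mostly on astrocytes. Slc6a11 (ENSMUSG00000030307, plus strand of chromosome 6, 114131241 to 114249952) stood at 360 and 379 CPM in the Phf8 shRNA libraries, against 118 and 107 CPM in the control shRNA libraries. The groups lay well apart, with the lower Phf8 shRNA library above the higher control library. The log2 fold change was 1.72 ± 0.06 (SE, n = 2 per group) (edgeR quasi-likelihood F test, Benjamini-Hochberg adjusted p = 3.31e-185). A larger log2 fold change was found in 1.44% of all genes tested, and one larger in absolute size in 5.67%.

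Slc6a13 (ENSMUSG00000030108, plus strand of chromosome 6, 121300227 to 121337733) encodes GAT-2, a GABA transporter known from the meninges, liver and kidney. It had 4 and 2 reads in the Phf8 shRNA libraries and 3 and 3 reads in the control shRNA libraries. These libraries thus gave almost no signal for it in either group, and the groups overlapped. The depth-adjusted ratio of reads was 1.05 with a 95% exact binomial counting interval of 0.281 to 3.94, so that a difference was not detectable at this depth. The reads of Slc6a11 exceeded those of Slc6a13 3894-fold and 6961-fold in the Phf8 shRNA libraries, against 1706-fold and 1456-fold in the control shRNA libraries. The mean log2 ratio was 1.72 higher with Phf8 shRNA (two-sided exact permutation test over 4 libraries, p = 0.33, the smallest this design allows), and 2 to 4 reads of Slc6a13 stand behind each ratio.

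The windows around the starts of both transporter genes are shown for the same comparison of an abundant and a scarcely detected relative, again 5′ to 3′ on the plus strand with CG in capitals. The Slc6a11 window is chr6:114130991-114131290 and the Slc6a13 window, the one of 3 in RefSeq nearest to the listed start of the gene, is chr6:121300038-121300337.
Slc6a11: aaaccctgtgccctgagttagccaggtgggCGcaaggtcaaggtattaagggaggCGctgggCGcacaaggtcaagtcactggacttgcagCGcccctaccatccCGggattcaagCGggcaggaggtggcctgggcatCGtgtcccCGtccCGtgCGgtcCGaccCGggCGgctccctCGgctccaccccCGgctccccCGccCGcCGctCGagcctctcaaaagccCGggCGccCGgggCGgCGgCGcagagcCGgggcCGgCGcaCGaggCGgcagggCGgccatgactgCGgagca
Slc6a13: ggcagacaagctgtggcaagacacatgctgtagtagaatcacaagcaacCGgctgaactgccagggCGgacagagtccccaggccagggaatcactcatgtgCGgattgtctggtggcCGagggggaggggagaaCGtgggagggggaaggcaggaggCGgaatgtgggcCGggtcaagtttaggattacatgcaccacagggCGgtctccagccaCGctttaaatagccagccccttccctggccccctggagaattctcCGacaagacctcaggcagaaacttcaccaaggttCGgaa
The Slc6a11 window held 32 CG dinucleotides, a number reached by 9.52% of all windows, and this Slc6a13 window held 11, reached by 41.4%. The other Slc6a13 windows held 7 and 2. RefSeq windows were matched for 5 of the 7 genes, and that of Aldh5a1 held 24 CG dinucleotides.

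Neighbouring protein-coding genes were read on the chromosomes of the GABA genes. Genes with symbols of the Gm or Rik type were left out, so that a left-out gene may lie nearer than a named one. Of 13 neighbours read, 10 were tested, 2 rose, 4 fell and 4 did not pass. Among all genes tested 24.8% rose and 27.3% fell, so that these counts by themselves did not set the neighbours apart. Slc6a12, the betaine and GABA transporter gene 5.34 kb beyond Slc6a13, had 2 and 0 reads in the Phf8 shRNA and 2 and 0 reads in the control shRNA libraries. The calcium pump gene Atp2b2, which lies 88.6 kb before Slc6a11 on the opposite strand, rose with 8.49 and 9.97 CPM in the Phf8 shRNA libraries, against 4.67 and 3.69 CPM in the control shRNA libraries (log2 fold change 1.13 ± 0.11 SE). The nearest protein-coding neighbours of Gad1 by this rule fell. Erich2, 12.2 kb before Gad1, had a log2 fold change of -1.38 ± 0.25 (SE) on few reads. It held 32 and 19 reads in the Phf8 shRNA libraries, against 80 and 60 reads in the control shRNA libraries. Gorasp2, 59.6 kb beyond Gad1, had a log2 fold change of -0.26. Gpld1, 5.49 kb from Aldh5a1, fell to 3.65 and 4.14 CPM in the Phf8 shRNA libraries, against 11.6 and 11.8 CPM in the control shRNA libraries (log2 fold change -1.59 ± 0.11 SE), next to a gene that did not pass the test. Ndp, 68.2 kb from Maob, fell (-0.33 ± 0.07), and Tmem186, 11.7 kb from Abat, rose (0.21 ± 0.08), while Usp18 beside Slc6a13, Mettl22 beside Abat, Tdp2 beside Aldh5a1 and Maoa beside Maob did not pass. Beside Gad2, Myo3a had 0 reads in all 4 libraries and Apbb1ip had 1 and 3 reads in the Phf8 shRNA libraries, against 6 and 15 reads in the control shRNA libraries.

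**Figure D2:**
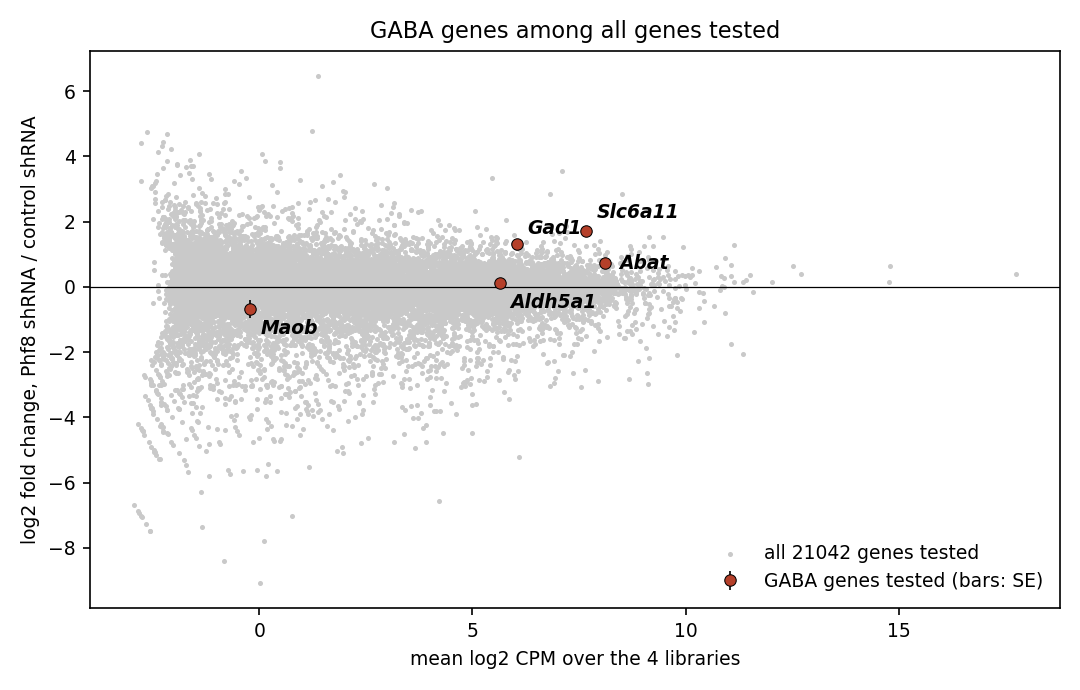
Log2 fold change of Phf8 shRNA over control shRNA against mean log2 CPM over the 4 libraries. Grey points are all 21042 genes tested and red points the 5 tested GABA genes, with bars for the SE. Slc6a11 and Gad1 sit near the upper edge of the cloud at their level, Abat above 0, Aldh5a1 close to 0 and Maob below 0 at a low level.

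Abat, the gene of the transaminase that starts GABA breakdown by turning it into succinic semialdehyde, rose 1.66-fold. Abat (ENSMUSG00000057880, plus strand of chromosome 16, 8513429 to 8621568) stood at 370 and 340 CPM in the Phf8 shRNA libraries, against 215 and 214 CPM in the control shRNA libraries. The control libraries were nearly equal and both lay below the Phf8 shRNA libraries. The log2 fold change was 0.73 ± 0.06 (SE, n = 2 per group) (edgeR quasi-likelihood F test, Benjamini-Hochberg adjusted p = 1.31e-35). A larger log2 fold change than that of Abat was found in 10.2% of all genes tested, and one larger in absolute size in 22.5%. Abat did not pass with the biological coefficient of variation set to 0.2 (likelihood ratio test of edgeR, adjusted p = 0.0707), whereas Gad1 and Slc6a11 passed there too, at a setting that called 15.7% of all genes tested.

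Gad1, a gene for making GABA, and Abat, the gene for the first step of its breakdown, both rose, and Gad1 rose more. For each read of Abat there were 0.273 and 0.308 reads of Gad1 in the Phf8 shRNA libraries, against 0.196 and 0.192 in the control shRNA libraries. This ratio is taken within a library and does not depend on the scaling between libraries. It did not overlap between the groups and was 0.58 higher on the log2 scale with Phf8 shRNA (two-sided exact permutation test over 4 libraries, p = 0.33, the smallest this design allows).

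Aldh5a1, the gene of the succinic semialdehyde dehydrogenase that completes GABA breakdown, did not pass the test. Aldh5a1 (ENSMUSG00000035936, minus strand of chromosome 13, 24907579 to 24937661) stood at 53.7 and 49.4 CPM in the Phf8 shRNA libraries, against 48.0 and 48.0 CPM in the control shRNA libraries. The Phf8 shRNA libraries were slightly higher and differed from each other by more than the control libraries did. The log2 fold change was 0.10 ± 0.06 (SE) (edgeR quasi-likelihood F test, Benjamini-Hochberg adjusted p = 0.125). Aldh5a1 did pass with upper-quartile scaling (log2 fold change 0.19, adjusted p = 0.00135) and without Phf8 shRNA replicate 2 (0.17, adjusted p = 0.0264), both by the same edgeR test. Exons of 2 long noncoding RNA genes on the opposite strand cover 17.7% of its exonic length, and no source used here gives the strand setting of the counting. Of those genes, 4932702P03Rik held 51 and 38 reads in the Phf8 shRNA libraries and 52 and 49 reads in the control shRNA libraries. The other, 9330162012Rik, held 21 and 25 reads in the Phf8 shRNA libraries and 62 and 53 reads in the control shRNA libraries. Aldh5a1 itself held 1812 to 2323 reads, and how far the overlap affects its value was not tested. No exon of the other 6 genes overlapped another annotated gene.

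Maob, the monoamine oxidase gene of the putrescine route, was low and fell. Maob (ENSMUSG00000040147, minus strand of chromosome X, 16709282 to 16817366) had 32 and 20 reads in the Phf8 shRNA libraries and 38 and 50 reads in the control shRNA libraries, or 0.740 and 0.545 CPM against 0.878 and 1.22 CPM. The groups did not overlap, but the spread inside each was wide for the size of the difference. The log2 fold change was -0.69 ± 0.28 (SE) (edgeR quasi-likelihood F test, Benjamini-Hochberg adjusted p = 0.0310). Maob lost this call with DESeq2 (adjusted p = 0.220), with upper-quartile scaling (adjusted p = 0.0666, edgeR with Benjamini-Hochberg adjustment), with the biological coefficient of variation set to 0.2 (adjusted p = 0.253), and when Phf8 shRNA replicate 2 (log2 fold change -0.49, adjusted p = 0.216) or control shRNA replicate 2 (-0.43, adjusted p = 0.385) was left out. Without Phf8 shRNA replicate 1 its log2 fold change was -0.94, and it was -0.92 without control shRNA replicate 1. The related oxidase gene Maoa, which lies 21.5 kb from Maob on the X chromosome, stood at 135 CPM in Phf8 shRNA and 132 CPM in control shRNA astrocytes and did not pass the test (adjusted p = 0.705, edgeR with Benjamini-Hochberg adjustment).

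The order of levels per kilobase of exon was not the same in both groups. In Phf8 shRNA astrocytes Slc6a11 (73.2 ± 2.68 CPM per kb) stood above Abat (45.8 ± 2.68), followed by Gad1 (13.5 ± 0.368), Aldh5a1 (9.13 ± 0.546), Maob (0.230 ± 0.0495), Gad2 (0.0386 ± 0.00446) and Slc6a13 (0.0253 ± 0.00926). In control shRNA astrocytes Abat (27.7 ± 0.0428 CPM per kb) stood above Slc6a11 (22.3 ± 1.61), and Aldh5a1 (8.50 ± 0.00267) above Gad1 (5.45 ± 0.0729), followed by Maob (0.377 ± 0.0872), Slc6a13 (0.0246 ± 0.000970) and Gad2 (0.0203 ± 0.00652), all SD with n = 2 libraries. The ranges of libraries overlapped between Slc6a13 and Gad2 in the control shRNA group and between no other neighbours in either order. The order of Gad2 and Slc6a13 rests on at most 9 reads a library in both groups. Slc6a11 and Abat, and Gad1 and Aldh5a1, thus changed places between the groups on this scale. The scale divides by the length of all annotated exons, and which transcripts were expressed was not tested. In CPM without this division, Abat (370 and 340) and Slc6a11 (360 and 379) overlapped in the Phf8 shRNA libraries. Gad1 and Aldh5a1 changed places in CPM as well.

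Genes of the wider GABA pathway were read from lists, whose counts stand beside a background in which 24.8% of all genes tested rose and 27.3% fell, with a median log2 fold change of 0.014. Best1, a chloride channel gene whose product is known to release GABA from astrocytes, was the 1 tested gene of 3 in the list of other transport and release genes, and it fell (log2 fold change -0.93 ± 0.23 SE, 30 and 47 reads in the Phf8 shRNA and 90 and 65 in the control shRNA libraries). The Best1 call was lost without Phf8 shRNA replicate 1 (log2 fold change -0.52). The vesicular GABA transporter gene Slc32a1, which loads GABA into synaptic vesicles, had 0 and 0 reads in the Phf8 shRNA libraries and 0 and 1 reads in the control shRNA libraries. In the putrescine list, which holds genes that make, spend or oxidise putrescine, 15 of 17 genes were tested, 5 rose and 8 fell (median log2 fold change -0.16). Azin2, an activator of putrescine synthesis, fell to 9.70 CPM in Phf8 shRNA astrocytes, against 32.2 CPM in control shRNA astrocytes (log2 fold change -1.73 ± 0.08 SE), and Aldh1a1, an aldehyde dehydrogenase gene, fell (-1.29 ± 0.13). Smox, the spermine oxidase gene, rose (1.14 ± 0.06), as did Aldh2 (0.64 ± 0.08), whereas Oaz2, an antizyme gene whose product restrains putrescine synthesis (-0.86 ± 0.06), and the polyamine acetyltransferase gene Sat1 (-0.77 ± 0.06) fell.

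The step after Aldh5a1 leads into the Krebs cycle. Of 13 genes around succinic semialdehyde and that part of the cycle, all 13 were tested, 3 rose, 5 fell and 5 did not pass, with a median log2 fold change of -0.08. These counts lie near that background. The changes were small, from the succinyl-CoA ligase gene Suclg2 (0.47 ± 0.06) and the hydroxyacid-oxoacid transhydrogenase gene Adhfe1 (0.37 ± 0.06) to the hydroxyglutarate dehydrogenase gene D2hgdh (-0.38 ± 0.10). The succinic semialdehyde reductase gene Akr7a5 did not pass (0.10 ± 0.07). Glutamate decarboxylase and GABA transaminase both need pyridoxal phosphate, and of 2 genes that supply or hold it, the pyridoxal kinase gene Pdxk rose (0.20 ± 0.07) and the binding protein gene Plpbp fell (-0.20 ± 0.06). The Pdxk call was lost with library size alone (adjusted p = 0.0874), when Phf8 shRNA replicate 2 (0.134) or control shRNA replicate 2 (0.192) was left out, all by edgeR, and with DESeq2 (adjusted p = 0.101), and the Plpbp call was lost with upper-quartile scaling (edgeR, adjusted p = 0.0625). With the biological coefficient of variation set to 0.2, Pdxk, Plpbp, Suclg2, Adhfe1, D2hgdh, Best1, Aldh2, Sat1 and Gabbr1 did not pass. Exons of Pdxk overlap a gene of the opposite strand over 39.0% of their length, and how far this affects the value of Pdxk was not tested.

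Genes that receive GABA mostly rose where they could be tested. Of 21 receptor subunit genes, 13 were tested, 8 rose and 3 fell (median log2 fold change 0.80), where 24.8% of all genes tested rose, with Gabra2 at 5.01 CPM in Phf8 shRNA and 0.954 CPM in control shRNA astrocytes (log2 fold change 2.39 ± 0.18 SE), and the metabotropic receptor genes Gabbr1 and Gabbr2 at 0.47 ± 0.06 and 0.80 ± 0.06.

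**Figure D3:**
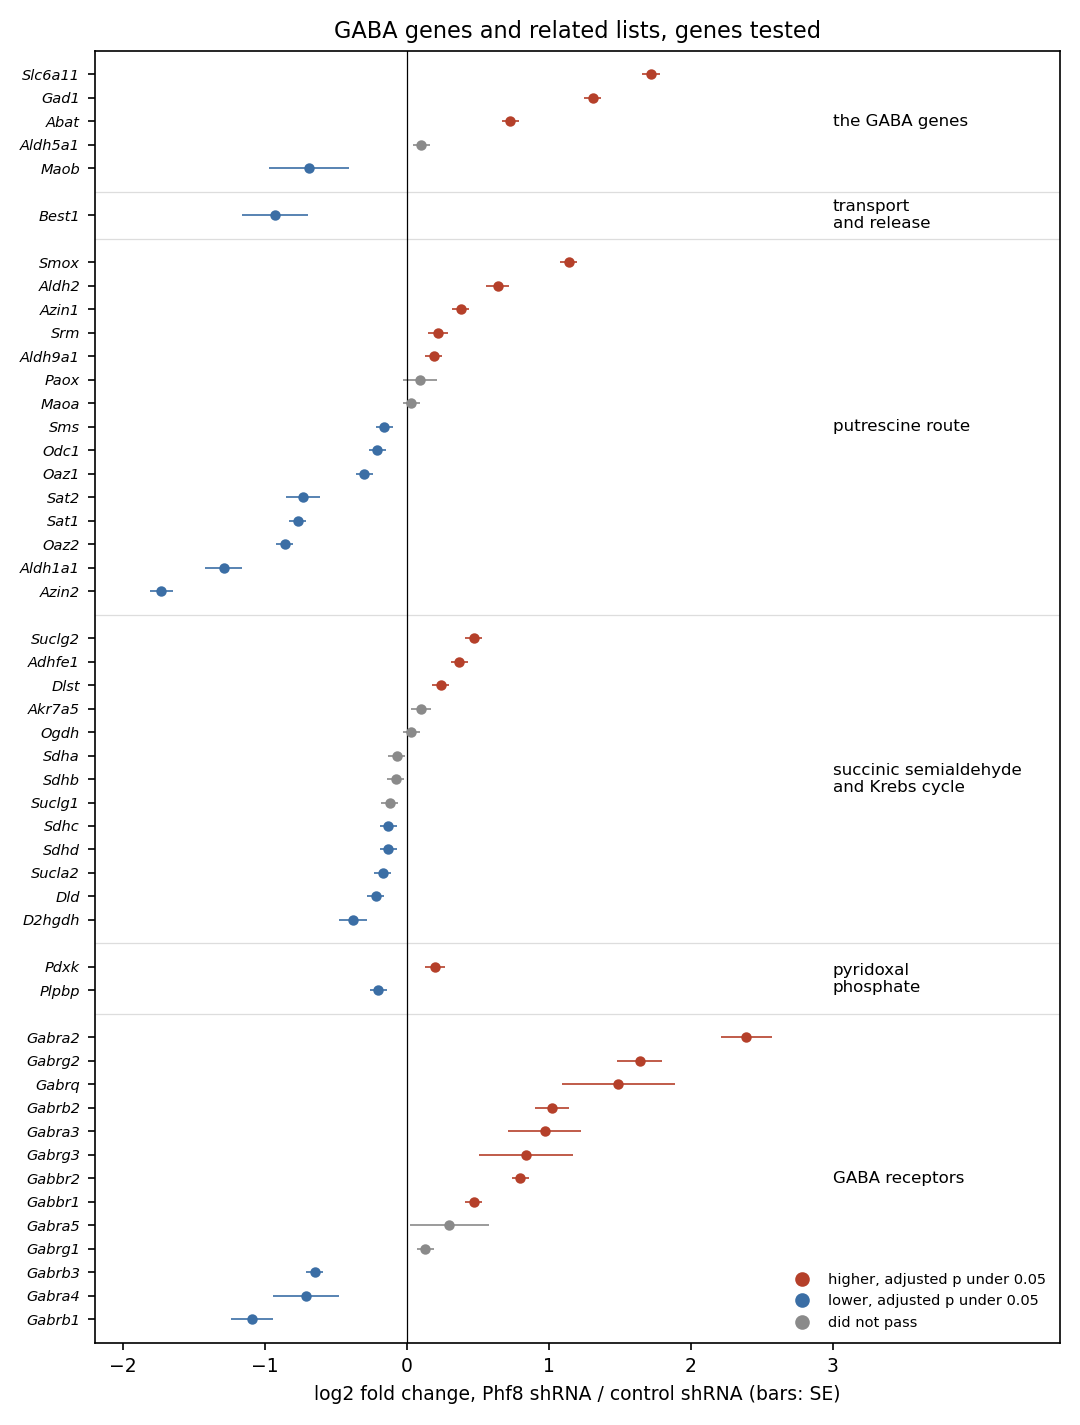
Log2 fold change of Phf8 shRNA over control shRNA for the tested GABA genes and for each tested gene of the related lists, with bars for the SE. Red marks genes higher and blue genes lower at an adjusted p under 0.05, and grey those that did not pass. Slc6a11 and Gad1 lie at 1.72 and 1.31, while the 13 genes around succinic semialdehyde stay between -0.38 and 0.47.

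Markers of other cell types changed as well, in both directions. In such bulk libraries fewer cells of a type and less RNA per cell cannot be told apart. Of 18 GABA neuron markers, 3 were tested. Of these 3, Sp9 rose (1.88 CPM in Phf8 shRNA, 0.686 CPM in control shRNA astrocytes), Pvalb fell (9.60 CPM in Phf8 shRNA, 26.2 CPM in control shRNA astrocytes) and Dlx1 did not pass. Lhx8, Nkx2-1, Isl1 and Vip had 0 reads in all 4 libraries, Lhx6, Sp8, Sst, Tac1, Penk and Slc32a1 had at most 10 reads over all 4, and the summed level of the list was 13.7 and 12 CPM in the Phf8 shRNA libraries, against 27.3 and 28.4 CPM in the control shRNA libraries. The direction of that sum rests on Pvalb: without it the other markers of the list summed to 3.10 and 3.35 CPM in the Phf8 shRNA libraries, against 1.85 and 1.42 CPM in the control shRNA libraries, a comparison added after the values were seen. Of 12 general neuron markers, 9 were tested, 8 rose and 0 fell, against the 24.8% and 27.3% of all genes tested, and their sum was 1832 and 1823 CPM in the Phf8 shRNA libraries, against 1135 and 1174 CPM in the control shRNA libraries. Of these 12, the glutamate vesicle transporter genes Slc17a6 and Slc17a7 had at most 10 reads over all 4 libraries, and none of the 12 was at 0 throughout. Stmn2 was not tested either, with 12 and 5 reads in the Phf8 shRNA libraries, against 7 and 8 reads in the control shRNA libraries. Rbfox3 was tested and did not pass (log2 fold change 0.15 ± 0.09 SE, edgeR with Benjamini-Hochberg adjustment, adjusted p = 0.185).

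Of 14 oligodendrocyte lineage markers, 13 were tested, 12 rose and 0 fell, with a sum of 1400 and 1345 CPM in the Phf8 shRNA libraries, against 827 and 782 CPM in the control shRNA libraries, and none at 0 throughout. Neural progenitor markers went both ways, with 4 higher and 4 lower of 9, and sums of 2358 and 2205 CPM in the Phf8 shRNA and 2118 and 2150 CPM in the control shRNA libraries. Of 10 meningeal fibroblast markers, the cells for which Slc6a13 is known, 4 were tested, 0 rose and 3 fell, Aldh1a2 and Slc22a6 were at 0, and Col1a2, Dcn and Lum had at most 10 reads over all 4 libraries. Their sum was 55.5 and 51.2 CPM with Phf8 shRNA and 97.9 and 92.0 CPM with control shRNA. Of 10 endothelial and mural markers, 8 were tested, 1 rose and 4 fell, at sums of 26.3 and 26.6 CPM with Phf8 shRNA and 28.1 and 28.0 CPM with control shRNA, and Cdh5 was at 0. Of 10 microglia markers, 5 were tested, 0 rose and 2 fell, at sums of 6.08 and 6.18 CPM with Phf8 shRNA and 8.92 and 9.63 CPM with control shRNA, and Trem2 was at 0. Without the most abundant gene of each list, also added after the values were seen, the sums of neuron (without Map2), oligodendrocyte lineage (without Olig1) and meningeal fibroblast markers (without Ptgds) kept their direction. Without Gfap the astrocyte markers summed to 6075 and 5624 CPM in the Phf8 shRNA libraries, against 5949 and 5900 CPM in the control shRNA libraries, and overlapped. Without Cd68 the microglia markers summed to 3.47 and 3.81 CPM with Phf8 shRNA, against 3.68 and 3.79 CPM with control shRNA, and overlapped as well. Without Fabp7 the progenitor markers turned to the other direction, with 1077 and 1067 CPM in the Phf8 shRNA libraries, against 1697 and 1734 CPM in the control shRNA libraries. Without Pdgfrb the endothelial and mural markers summed to 2.45 and 2.59 CPM with Phf8 shRNA, against 18.6 and 18.5 CPM with control shRNA. The part of neuronal and oligodendrocyte lineage cells, whose summed markers were higher with Phf8 shRNA, in the levels of Gad1, Slc6a11 and Abat was not tested.

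**Figure D4:**
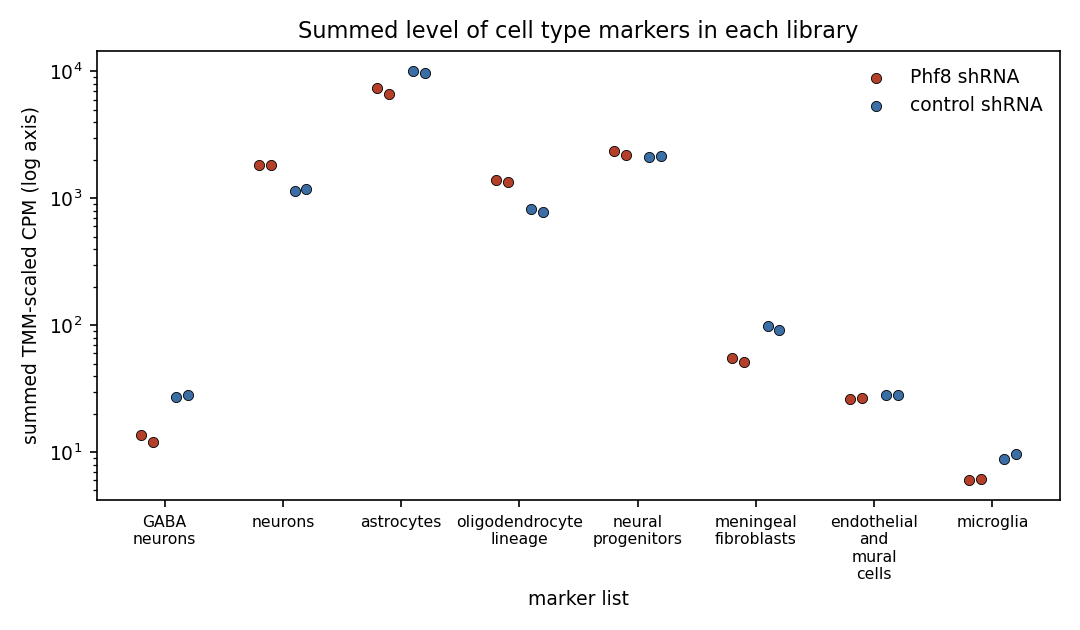
Summed TMM-scaled CPM of each marker list in each library, on a log axis, with Phf8 shRNA left and control shRNA right (2 libraries each). The sums of neuron and oligodendrocyte lineage markers lie higher in both Phf8 shRNA libraries, while those of GABA neuron, astrocyte and microglia markers lie lower through Pvalb, Gfap and Cd68, without which they are higher (GABA neurons) or overlap between the groups (astrocytes and microglia).

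Among 13618 other protein-coding genes tested, those with the pattern most like a GABA gene were named by the Euclidean distance of their centred log2 CPM over the 4 libraries. For Gad1 these were Ptpru (distance 0.028, log2 fold change 1.30) and Pdgfrb (0.039, 1.33), for Slc6a11 Grin2b (0.033, 1.73) and Prkch (0.080, 1.99), and for Abat Amph (0.031, 0.75) and Klhl5 (0.034, 0.76). With 2 libraries per group this measure holds little beyond the size of the change, and 27, 7 and 80 genes lay within 0.1 of Gad1, Slc6a11 and Abat. Within 0.1 of Aldh5a1 lay 1033 genes, Dnajc7 (0.013) among the nearest, and none lay within 0.1 of Maob, for which Rasd1 (0.111) and Adgrf4 (0.132) were nearest.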

How the data were processed

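RNA of 4 astrocyte samples was sequenced after ribosomal RNA depletion with a stranded kit, per the labels' protocols. HISAT2, HTSeq and DESeq2 with build mm10 are named in the submitters' processing notes, while their versions, the strand setting and the annotation are not given in the sources used. The deposited files hold whole-number read counts per gene, not normalized, since their totals differ between libraries. Of 55421 identifiers, 55240 were in GENCODE M21, which gave gene types and exonic lengths, and 55154 had a symbol in the table of names. Groups were taken from the sample titles.

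Counts were tested with edgeR 4.0.16 (R 4.3.3): filterByExpr, TMM factors from 0.967 to 1.02, quasi-likelihood F test without covariates, two-sided, and Benjamini-Hochberg adjustment over all genes tested at 0.05. Standard errors were derived from each fold change and F value. Exact binomial intervals (scipy 1.17.1) cover counting error only. The fit was tested on simulated data. Both libraries of a group differed beyond sampling noise (chi-square per degree of freedom 2.93 for Phf8 shRNA and 3.21 for control shRNA). Alternatives were DESeq2 1.42.0, limma-voom (limma 3.58.1), other scalings and filters, a replicate block, a fixed spread and leaving out each library. The genes and lists were chosen with earlier results of these data known. The text names the 7 genes, Phf8, up to 6 tested genes of each related list by smallest p, other list members mostly as counts, the nearest protein-coding neighbours, and 2 nearest patterns per gene. Neighbours and patterns were sought without genes whose symbols are of the Gm or Rik type. Neighbours, marker genes and list genes outside that rule (Slc32a1, Slc6a12, Maoa and Akr7a5) were named after their values were seen. Some genes that the rule or the lists take are not reported here and are left out of the list counts.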

Additional observations from a re-analysis of the deposited data

How the results depend on the processing

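Over 14 alternatives the log2 fold changes of Gad1 (1.25 to 1.39), Slc6a11 (1.65 to 1.80) and Abat (0.67 to 0.81) kept their direction, and those of Gad1 and Slc6a11 stayed past the threshold. With the biological coefficient of variation set to 0.2, 3305 genes were called, among them 2 of the GABA genes (Gad1 and Slc6a11) and 11 genes of the related lists, against 10965, 4 and 35. Aldh5a1 ran from 0.04 to 0.19 and Maob from -0.94 to -0.43, and their calls depended on the setting as given above. The filter of at least 1 CPM in 2 libraries left Maob out.

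Leaving out 1 library at a time, with the lone library of a group assumed to vary like the other group, gave 9053 to 10235 called genes, 3 to 4 of the GABA genes and 28 to 33 genes of the related lists. Between Phf8 shRNA and control shRNA the log2 ratio of Gad1 to Gad2 then differed by 0.00 to 0.70, that of Slc6a11 to Slc6a13 by 1.30 to 2.14 and that of Gad1 to Abat by 0.49 to 0.67. The replicate numbers are not stated to mark a shared batch, and the deviations of same-numbered libraries had a correlation of -0.00102. With the replicate block 10929 genes were called, the calls among the 7 genes were the same 4, and Gad1, Slc6a11, Abat and Maob had log2 fold changes of 1.31, 1.72, 0.73 and -0.68. Depth limits Gad2 and Slc6a13, for which only differences larger than their counting intervals could be seen.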
